A study of Homo sapiens with 4 samples.

Results

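The comparison described here is between GFP-positive and GFP-negative cells of the control (CTR) culture of a human cardiac differentiation, 2 of the 4 libraries of the series. The cells were NKX2.5:GFP hESCs, an established human embryonic stem cell line in which GFP replaces a copy of NKX2-5 and is driven by that locus, so that the line carries NKX2-5 on the other allele only. They were differentiated as spin embryoid bodies, aggregates formed by centrifugation. The CTR culture received DMSO, the solvent, from day 4 to day 7, and its counterpart received 1 µM retinoic acid (RA) over the same days. According to the series description both cultures were sorted by GFP at day 31, which gave 4 fractions (CTR GFP-positive, CTR GFP-negative, RA GFP-positive and RA GFP-negative) with 1 library each. The question was what marks the reporter cells and what the remainder of the culture contained. All of the cells came from 1 line, the sort selected on NKX2-5 itself, and the GFP-negative fraction was whatever the culture held outside that gate. Of 60234 Ensembl genes in the counts, 11806 had at least 10 CPM (reads per 1000000 reads of the library) in either CTR library, and these form the comparison. The filter corresponded to 287 reads in the GFP-positive and 47.0 reads in the GFP-negative library. Just inside it were EIPR1, IRAK3 and PDGFB, and just outside it PTER, FAM227B and DDX28.

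NKX2-5 is a homeodomain transcription factor that is switched on in cardiac progenitors and stays on in heart muscle cells. Cardiomyocytes contract through sarcomeres, in which thick filaments of myosin pull on thin filaments of actin under the control of troponin and calcium, and they depend on dense mitochondria for their energy supply. Cardiac differentiations of pluripotent cells also yield other derivatives of the mesoderm, such as stromal, epicardial and endothelial cells, and cells of other germ layers.

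The CTR GFP-positive library held 28643091 reads and the CTR GFP-negative library 4371101, so that the former was 6.55 times as deep. A gene with no reads is taken here to hide at most 3 reads, which is 0.105 CPM in the GFP-positive and 0.639 CPM in the GFP-negative library. CPM were scaled with TMM (trimmed mean of M values) factors, and differences are GFP-positive minus GFP-negative on the scale of log2(CPM + 1), which understates the change of low genes. At least 2-fold and at least 8-fold mean a difference of at least 1 and at least 3 on that scale, in either direction. Values in parentheses are 95% intervals, exact Poisson for a CPM and Clopper-Pearson for a ratio. They cover counting error only, since amplified reads are not independent molecules. With 1 library per fraction there is no replicate check, and no test was made.

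The reporter locus itself separated the fractions. NKX2-5 (ENSG00000183072, chr5:172659112-172662314 in GRCh37) had 16991 reads in CTR GFP-positive and 68 reads in CTR GFP-negative cells. Its levels were 593 CPM (584 to 602) and 14.5 CPM (11.2 to 18.4), a 40.9-fold difference (32.3 to 52.8). In the RA culture the corresponding levels were 463 and 9.74 CPM. Both GFP-positive libraries thus lay above both GFP-negative libraries, as the labels of the sort require.

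Across the 11806 genes the fractions were centred close to each other, with a median difference of 0.08. At least 2-fold higher in GFP-positive cells were 1406 genes (11.9%), and at least 2-fold higher in GFP-negative cells were 1567 (13.3%). At the 8-fold threshold the counts were 166 (1.41%) and 348 (2.95%). The remaining 8833 genes lay within 2-fold. Of 252 long noncoding RNAs tested, 87 (34.5%) were at least 2-fold higher inside the gate and 22 (8.73%) outside it, with a median difference of 0.56. Of these 252, 91 reached 10 CPM in the reporter cells alone and 35 in the remainder alone and so had to differ that way, and of the 126 that reached it in both, 25 and 4 were at least 2-fold higher in these directions. Of 11097 protein-coding genes, 1244 (11.2%) and 1506 (13.6%) passed in these directions.

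**Figure D1:**
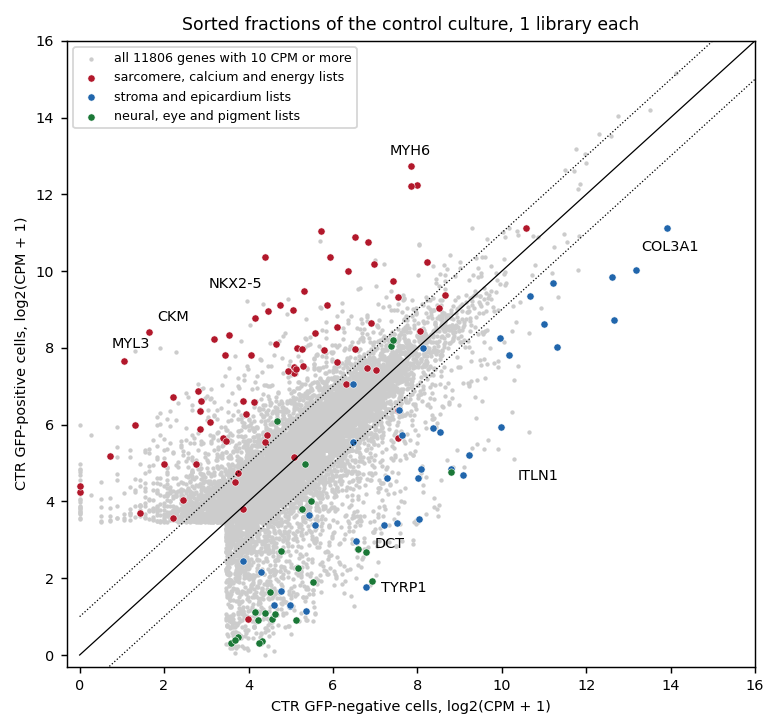
Level of each of the 11806 genes in the CTR GFP-negative (horizontal) and CTR GFP-positive library (vertical), both as log2(CPM + 1), with equality as a solid line and 2-fold as dotted lines. Genes of contraction, calcium cycling and energy supply (red) lie mostly above the upper dotted line, and stromal, epicardial, neural, eye and pigment genes (blue and green) mostly below the lower one.

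The marker genes were taken as 26 lists, each summarised by how many of its members passed 2-fold and by its median difference, to be read against the shares and the median of all genes above. Lists were chosen by function or cell type, and members under 10 CPM in both CTR libraries are counted apart. A member that reached 10 CPM in 1 fraction alone had to be higher there, so counts and medians over tested members describe them and support no direction for a list. Of all genes tested, 984 reached 10 CPM in the reporter cells alone and 1161 in the remainder alone. In the remainder alone were 6 of the 7 tested genes of the eye field and retina, 8 of 11 of neural progenitors, 5 of 7 of neurons, 4 of 7 of pigment cells, 4 of 6 of neural crest and glia, 9 of 13 of endothelium, 9 of 13 of epicardium and mesothelium, 8 of 13 of epithelium and 6 of 18 of the cell cycle. In the reporter cells alone were 8 of 17 genes of membrane excitability, 8 of 21 of energy supply and 7 of 21 of the Z-disc list. Stroma (3 of 25 in the remainder alone) and the thick and thin filament (2 of 17 in the reporter cells alone) rested little on such members. Exon bases shared with other genes, which make a level uncertain, also came to between 21.7% and 28.1% in FITM1, PAX6, FOXD3, TNNI3, TCF21, MCM2, TPM1, MT-ATP8 and SDHA.

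Among 25 cardiac transcription factors, 23 were tested, 15 were at least 2-fold higher in GFP-positive cells and 1 was at least 2-fold higher in GFP-negative cells, with a median difference of 1.93. IRX4, a factor of ventricular muscle, had 241 CPM (235 to 247) in GFP-positive and 1.49 CPM (0.599 to 3.07) in GFP-negative cells. The RA fractions had 38.3 and 2.10 CPM, so that the CTR GFP-positive library stood highest of the 4. NKX2-5 came next in size of difference in this list, followed by SMYD1, a muscle methyltransferase needed for myofibril assembly (388 against 15.3 CPM, 25.3-fold), TBX20 (291 against 13.2 CPM, 22.0-fold) and MYOCD, a coactivator of muscle genes (113 against 4.69 CPM, 24.2-fold). Other members of the list differed less. TBX5 had 97.3 against 17.0 CPM, MEF2C 56.3 against 16.6 CPM and GATA4 530 against 213 CPM, whereas GATA6 differed by 0.91 and HAND1 by 0.71 on the log2 scale. TBX18, a factor of the epicardium and of the sinus horn, was the member with the opposite direction, at 28.0 CPM in GFP-positive and 269 CPM in GFP-negative cells. ISL1 and SHOX2, markers of progenitors and of pacemaker tissue, did not reach 10 CPM in either CTR library.

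Of 18 genes of the thick and thin filament, 17 were tested, 15 were at least 2-fold higher in GFP-positive cells, none was at least 2-fold higher in GFP-negative cells, and 13 passed 8-fold. Their median difference was 4.35. MYH6, the alpha myosin heavy chain of atrial and embryonic heart muscle, had 194353 reads inside the gate and 1076 outside it, or 6782 (6752 to 6813) and 229 CPM (216 to 243). It was the only gene of the nuclear genome among the 10 with the most reads in the CTR GFP-positive library. MYH7, the beta heavy chain, had 2111 (2094 to 2128) against 51.3 CPM (45.0 to 58.2), a 41.1-fold difference (36.2 to 46.9). Per kilobase of exon, the level of MYH6 in GFP-positive cells was 932 CPM and that of MYH7 was 350.2 CPM. MYH6 and MYH7 are near-identical neighbours and only uniquely aligned reads were counted, so the split between them is uncertain. MYBPC3, a regulator bound to the thick filament, had 38070 reads against 94, or 66.4-fold more CPM (54.2 to 82.1), and TNNT2, the cardiac troponin T, 4776 against 230.4 CPM.

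The light chains of myosin spread over a wide range of levels. MYL3, the ventricular essential light chain, had 200.4 CPM in GFP-positive and 1.06 CPM (0.346 to 2.48) in GFP-negative cells, a 188-fold difference (80.6 to 579.9). MYL7 and MYL4, the atrial light chains, had 1167 against 124 CPM and 719 against 39.0 CPM. Per kilobase of exon, levels in GFP-positive cells were 801 CPM for MYL7, 439 CPM for MYL4, 70.0 CPM for MYL3 and 14.3 CPM for MYL2, the ventricular regulatory light chain. The atrial members thus stood above the ventricular ones in level per length. MYL2 had 580 reads in CTR GFP-positive and none in CTR GFP-negative cells, which made it at least 31.7-fold higher against the floor of 3 reads, and 4.00 and 0 CPM in the RA fractions. The adult cardiac troponin I, TNNI3, was low and just passed 2-fold (25.8 against 12.4 CPM, a difference of 1.01), while TNNI1, the isoform of the fetal heart, had 1884 against 90.5 CPM. TPM1, a tropomyosin of many cell types, and ACTA1, the skeletal alpha actin, were the tested members within 2-fold.

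Promoter sequences are shown because short motifs for muscle factors were not spread evenly between the genes at least 8-fold higher in either fraction. The windows are the 250 bases before each RefSeq transcript start (GRCh38.p14), placed on GRCh37 by exact match. A MEF2 box was present in 11.2% of 161 windows of genes at least 8-fold higher in GFP-positive cells, in 1.14% of 350 windows of genes at least 8-fold higher in GFP-negative cells, in 1.70% of the windows of all genes tested and in 2.80% of all 35116 windows. Windows were found for 114 of the 166 and 242 of the 348 genes. MYBPC3, XIRP1, TTN and MYOZ2, all of the sarcomere and higher in GFP-positive cells, were picked because they hold a MEF2 box, and ITLN1 and TYRP1 are among the 15 largest differences towards GFP-negative cells. Their windows read as follows, 5′ to 3′, with every match to a motif searched in capitals.
MYBPC3: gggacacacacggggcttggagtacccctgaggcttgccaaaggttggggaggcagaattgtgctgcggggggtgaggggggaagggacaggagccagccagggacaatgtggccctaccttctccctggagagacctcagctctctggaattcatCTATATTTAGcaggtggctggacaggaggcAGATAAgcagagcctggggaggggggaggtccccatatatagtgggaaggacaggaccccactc
XIRP1: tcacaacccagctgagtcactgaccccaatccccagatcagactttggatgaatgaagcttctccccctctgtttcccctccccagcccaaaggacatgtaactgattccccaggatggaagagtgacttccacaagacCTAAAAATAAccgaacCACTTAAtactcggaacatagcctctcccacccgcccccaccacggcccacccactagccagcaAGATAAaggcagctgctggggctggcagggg
TTN: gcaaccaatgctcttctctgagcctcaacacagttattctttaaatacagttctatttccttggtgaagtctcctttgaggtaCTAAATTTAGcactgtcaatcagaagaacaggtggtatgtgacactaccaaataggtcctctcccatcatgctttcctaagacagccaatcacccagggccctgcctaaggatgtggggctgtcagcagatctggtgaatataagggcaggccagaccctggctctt
MYOZ2: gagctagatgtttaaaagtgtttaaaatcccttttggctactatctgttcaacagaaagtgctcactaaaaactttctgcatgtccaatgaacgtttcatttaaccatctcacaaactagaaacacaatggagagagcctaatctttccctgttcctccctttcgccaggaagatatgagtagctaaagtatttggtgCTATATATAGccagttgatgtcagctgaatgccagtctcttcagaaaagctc
ITLN1: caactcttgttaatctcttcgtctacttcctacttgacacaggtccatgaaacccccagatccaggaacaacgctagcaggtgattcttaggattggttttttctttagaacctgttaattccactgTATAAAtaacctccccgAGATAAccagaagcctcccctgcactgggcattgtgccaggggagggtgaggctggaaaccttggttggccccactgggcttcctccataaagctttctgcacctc
TYRP1: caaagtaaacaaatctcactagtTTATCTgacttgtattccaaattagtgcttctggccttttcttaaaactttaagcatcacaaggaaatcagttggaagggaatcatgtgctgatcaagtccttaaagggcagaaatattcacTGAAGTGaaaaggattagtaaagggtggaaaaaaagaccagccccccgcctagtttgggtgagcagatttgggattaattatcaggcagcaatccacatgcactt

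These windows lie at chr11:47374254-47374503 (MYBPC3, minus strand), chr3:39234087-39234336 (XIRP1, minus), chr2:179672151-179672400 (TTN, minus), chr4:120056737-120056986 (MYOZ2, plus), chr1:160854971-160855220 (ITLN1, minus) and chr9:12693135-12693384 (TYRP1, plus). The MEF2 box began 94 bases before the start in MYBPC3, 111 in XIRP1, 167 in TTN and 52 in MYOZ2. Other motifs were searched on both strands too, and a MEF2 box can overlap a TATA box. The GATA motif, spelled AGATAA, was in 16.8% of the windows of the 8-fold GFP-positive genes, 8.86% of those of the 8-fold GFP-negative genes, 5.32% of those of all genes tested and 9.17% of all windows. The CArG box, the site of serum response factor, was in 4.97%, 2.57%, 1.24% and 1.16% of these sets in the same order. The TATA box, spelled TATAAA, was in 16.1%, 12.6%, 5.81% and 10.7% of them. The NKX2-5 motif, spelled TNAAGTG, was in 6.21%, 8.57%, 6.32% and 8.73%, so that its share among the genes of the reporter cells was close to that among all genes tested. Genes with several starts have several windows, and by gene 16 of the 114 (14.04%) held a MEF2 box, against 4 of the 242 (1.65%) and 218 of the 9246 genes tested that have a window (2.36%). Among the 16 were PLCXD3, FBXO40, FHL2 and COX6A2. A match is a run of letters, and binding of a factor was not measured.

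Of 24 genes of the Z-disc, the M-band and sarcomere assembly, 21 were tested, 18 were at least 2-fold higher in the reporter cells and 2 in the remainder, with a median difference of 2.84. UNC45B, the chaperone that folds muscle myosin, had 299.6 CPM (293 to 306) against 8.09 CPM (5.73 to 11.1). CSRP3 and LDB3, scaffold proteins of the Z-disc, had 322 against 10.6 CPM and 441 against 16.8 CPM. LMOD2, which lengthens thin filaments, had 1013 reads against 3. The members with the opposite direction were ANKRD1, a stretch-responsive protein found in muscle and other cells (49.0 against 186 CPM), and CRYAB, a small heat-shock protein that many cells make (82.2 against 185 CPM).

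Genes of calcium cycling followed the contractile genes. All 16 were tested, 13 were at least 2-fold higher in GFP-positive cells, and the median difference was 2.46. PLN, the inhibitor of the calcium pump, had 1315 CPM (1302 to 1329) against 59.6 CPM (52.8 to 67.0). The pump itself, ATP2A2, had 1208 against 299 CPM, and RYR2, the release channel of the sarcoplasmic reticulum, 337 against 46.9 CPM. TRDN, SRL and HRC, which lie in or at the lumen of the reticulum, differed by between 3.45 and 3.74. SLN, a pump inhibitor known from atrial muscle, was the exception at 26 reads in GFP-positive and 70 reads in GFP-negative cells, or 0.907 CPM against 14.9 CPM (11.6 to 18.8). It was also lower in GFP-positive cells of the RA culture, with a difference of -1.52.

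Among 20 genes of membrane excitability, 17 were tested, 12 were at least 2-fold higher in GFP-positive cells, none in GFP-negative cells, and the median difference was 2.55. In both fractions 8 of them reached 10 CPM, and 4 of these 8 were at least 2-fold higher in GFP-positive cells. KCNIP2, a subunit of the transient outward potassium channel, had 77.7 against 2.77 CPM, a 28.1-fold difference (16.4 to 52.8). KCNQ1 and KCNH2, the channels of the slow and rapid delayed rectifier, had 82.7 against 7.24 CPM and 308 against 43.0 CPM. HCN4, the pacemaker channel, had 457 CPM (449 to 465) against 67.7 CPM (60.5 to 75.6). KCNJ2, the main channel of the inward rectifier that sets the resting potential of working muscle, went the other way below the filter, with no reads in CTR GFP-positive and 44 reads in CTR GFP-negative cells, at least 89.5-fold higher in the latter against the floor. KCNJ5, a subunit of the acetylcholine-gated channel, had 73.7 against 8.09 CPM, whereas its partner KCNJ3 had 15.1 against 14.3 CPM.

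The hormone genes were few. NPPA, atrial natriuretic peptide, had 37.8 CPM (35.6 to 40.1) in GFP-positive and 1.92 CPM (0.876 to 3.64) in GFP-negative cells, and CORIN, the protease that activates it, 219.5 against 11.7 CPM. Antisense transcripts share 25.5% of the exon bases of NPPA and strand was not used in counting, so its level is uncertain. NPPB, the B-type peptide, had 33 reads in GFP-positive and none in GFP-negative cells.

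Of 24 genes of muscle energy supply, 21 were tested, 16 were at least 2-fold higher in GFP-positive cells, none in GFP-negative cells, and the median difference was 2.22. CKM, the cytosolic creatine kinase of muscle, showed the largest difference of all genes tested, 6.76, with 338 CPM (332 to 345) against 2.13 CPM (1.02 to 3.92). Its mitochondrial counterpart CKMT2 had 63.0 against 1.49 CPM. MB, the oxygen store myoglobin, had 105 against 3.62 CPM. COX6A2, the muscle subunit of cytochrome oxidase, had 514 reads against none, at least 28.1-fold, with 38.3% of its exon bases shared with a gene of the opposite strand. The enzymes of fatty acid oxidation that most tissues use differed little, with ACADVL at 347 against 268 CPM and HADHA at 171 against 128 CPM. CPT1B, the muscle form of the carnitine transferase, was level at 13.0 against 13.6 CPM, but 66.4% of its exon bases are shared with another gene.

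Transcripts of the mitochondrial genome took 14.1% of the reads in CTR GFP-positive and 7.48% in CTR GFP-negative cells. All 13 of its protein-coding genes were tested, 7 passed 2-fold in favour of GFP-positive cells, and the median difference was 1.03. MT-CO1 had the most reads in either library, at 36412 and 17812 CPM. MT-ND2 differed most (9309 against 3453 CPM) and MT-ATP8 least (476 against 478 CPM). The mitochondrial share can also move with the state of the cells at the sort, and its part in these differences was not tested.

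The 15 genes with the largest differences in favour of GFP-positive cells were CKM, MYL3, IRX4, LRRC10, LINC00881, MYBPC3, PLCXD3, FBXO40, MYH7, NKX2-5, ENSG00000268518, UNC45B, FITM1, HAMP and MYH6, with differences from 6.76 down to 4.88. Several were not on any list. LRRC10, a leucine-rich repeat protein of heart muscle, had 254 CPM (248 to 260) against 2.77 CPM (1.47 to 4.73). LINC00881, a long noncoding RNA at chr3:156807423-156853346, had 1801 reads against none, at least 98.4-fold higher. FBXO40, a muscle ubiquitin ligase subunit, had 1494 reads against 1, and the counting interval of its ratio ran from 43.9 upward. HAMP, the iron-regulating hormone hepcidin known mainly from liver, had 873 reads against none, at least 47.7-fold. FITM1, a lipid droplet protein of muscle, had 60.0 against 0.852 CPM. ENSG00000268518, a long noncoding RNA on chromosome 19, had 1763 against 50.5 CPM, but all of its exon bases are shared with a gene of the opposite strand, so these reads cannot be assigned to it.

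**Figure D2:**
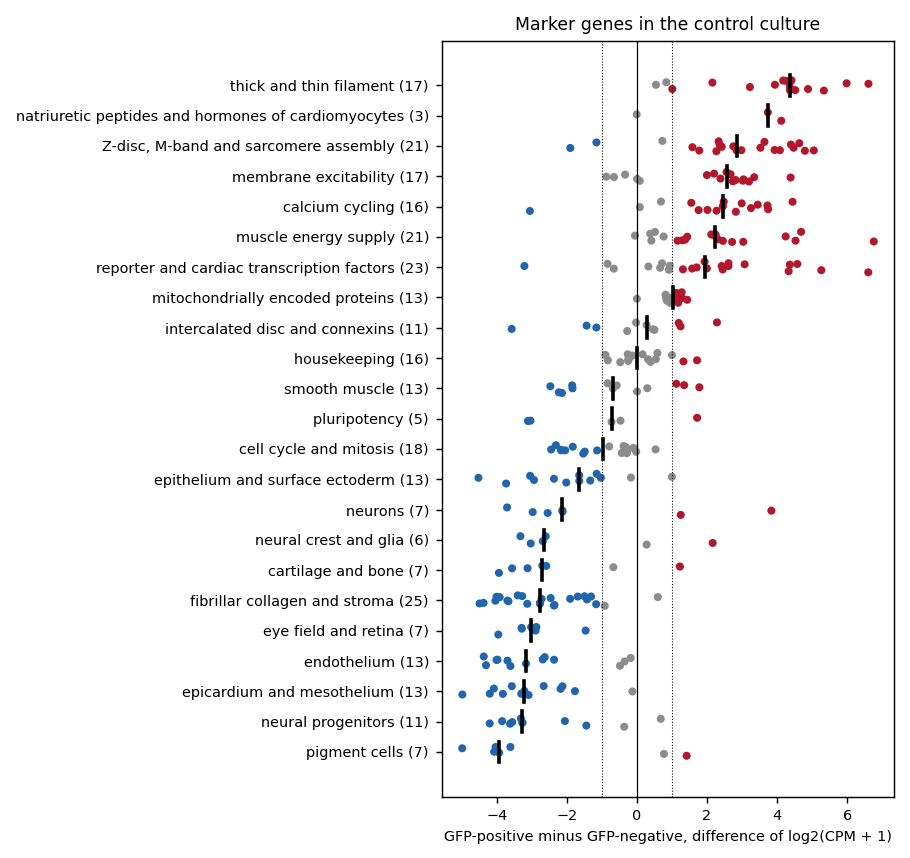
Difference between CTR GFP-positive and GFP-negative cells for every tested member of the marker lists, in log2(CPM + 1), with the number tested in parentheses, the list median as a bar and 2-fold as dotted lines. The list medians run from 4.35 for the thick and thin filament to -3.94 for pigment cells, and housekeeping genes lie around 0.01. Lists with fewer than 3 tested members are left out.

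Cell junctions did not follow the contractile genes. Of 11 genes of the intercalated disc and connexins, 3 passed 2-fold towards each fraction, with a median difference of 0.27. PKP2, the plakophilin of heart muscle desmosomes, had 367 against 74.7 CPM, while GJA1, the main gap junction protein of ventricular muscle and of fibroblasts, had 39.8 CPM (37.5 to 42.2) against 487 CPM (468 to 508). In the RA fractions GJA1 had 48.4 and 335 CPM, so that both GFP-positive libraries lay below both GFP-negative libraries. GJC1, the connexin of the embryonic heart, had 56.1 against 24.1 CPM. DSC2 and DSG2, desmosomal cadherins that epithelia also use, were at least 2-fold higher in GFP-negative cells, and CDH2, the N-cadherin, was level at 262 against 267 CPM.

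In the GFP-negative cells the most abundant transcripts outside the mitochondrion were those of connective tissue. COL3A1 (15391 CPM), COL1A1 (9212 CPM), COL1A2 (6414 CPM) and FN1 (6265 CPM) were among the 10 genes with the most reads there, and they had 2247, 1047, 422 and 916 CPM in GFP-positive cells. Of 25 genes of fibrillar collagen and stroma, all were tested, none was at least 2-fold higher in GFP-positive cells and 23 were at least 2-fold higher in GFP-negative cells, with a median difference of -2.77. LUM and DCN, small proteoglycans that bind collagen fibrils, led the list with 10.6 CPM (9.45 to 11.9) against 262 CPM (247 to 277) and 24.7 CPM (22.9 to 26.6) against 536 CPM (515 to 557). COL6A3 and FBN1, of beaded filaments and microfibrils, differed by -4.05 and -4.01. PDGFRA, a receptor of stromal cells and of early cardiac mesoderm, was the member with the opposite sign, at 132 against 87.3 CPM. In these bulk libraries fewer cells of a type and less RNA per cell cannot be told apart.

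The epicardium, the outer layer of the heart, and the mesothelium that lines body cavities share most of their markers. All 13 were tested and 12 were at least 2-fold higher in GFP-negative cells, with a median difference of -3.22 and none at least 2-fold higher in GFP-positive cells. Among the 4 that reached 10 CPM in both fractions, 3 were at least 2-fold higher in GFP-negative cells. ALDH1A1 and ALDH1A2, enzymes that make retinoic acid, had 2.44 CPM (1.90 to 3.09) against 108 CPM (99.2 to 118) and 9.46 against 148 CPM. BNC1 and BNC2, transcription factors of mesothelium, had 9.77 against 183 CPM and 1.22 against 40.0 CPM. UPK3B, a membrane protein of mesothelium, had 6.80 against 92.2 CPM, and TCF21, a factor of epicardial cells that become fibroblasts, 1.47 against 23.4 CPM. WT1 differed less, at 11.6 CPM (10.4 to 12.9) against 42.2 CPM (36.5 to 48.5), and the keratin KRT19 was level.

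The 15 genes with the largest differences in favour of GFP-negative cells were PRG4, ITLN1, TMEM151A, NTN1, TYRP1, ALDH1A1, COL8A2, PKHD1L1, HAS1, COL12A1, C3, SFRP2, CRYAA, PLA2G2A and PIEZO2, with differences from -5.21 to -4.65. PRG4, the lubricant proteoglycan of joints and serous surfaces, had 41 reads inside the gate and 418 outside it, or 1.43 CPM (1.03 to 1.94) against 89.0 CPM (80.7 to 98.0). ITLN1, the lectin omentin, whose promoter is shown above, had 33.2 CPM (31.1 to 35.4) against 1241 CPM (1209 to 1273). C3, the central component of complement, had 55.1 against 1602 CPM. HAS1, a hyaluronan synthase, had 1.88 against 85.2 CPM, SFRP2, a secreted inhibitor of Wnt signalling, 6.77 against 199 CPM, and NTN1, the guidance cue netrin, 6.39 against 238 CPM. CRYAA, a crystallin of the lens, had 6.11 against 180 CPM, with 62.5% of its exon bases shared with other genes.

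Of 17 endothelial genes, 13 were tested, 10 were at least 2-fold higher in GFP-negative cells and none in GFP-positive cells, with a median difference of -3.17 (-3.75 to -1.92 over the alternative settings). Among the 4 that reached 10 CPM in both fractions, 1 was at least 2-fold higher in GFP-negative cells. CDH5, the cadherin of endothelial junctions, had 24 reads in the reporter cells and 167 in the remainder, or 0.838 CPM (0.537 to 1.25) against 35.6 CPM (30.4 to 41.4). ESAM, an adhesion molecule of the same junctions, had no reads against 93, at least 189-fold higher in GFP-negative cells. TEK, the angiopoietin receptor, had 6 reads against 87, and KDR, a VEGF receptor that cardiac progenitors also carry, 14.8 against 204 CPM. VWF and LYVE1 had no reads in the reporter cells, and 20 and 30 reads in the remainder. No blood gene of 12 reached 10 CPM. Globins HBG1 and HBA1 had no reads in either CTR library and HBG2 had 2 reads in GFP-positive cells, although globin copies share exon bases and near-identical sequence, which leaves their counts uncertain, and PTPRC, the pan-leukocyte gene, had 0 and 6 reads.

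Most tested genes of neural progenitors and of the eye reached 10 CPM in the GFP-negative fraction alone. Of 23 genes of neural progenitors, 11 were tested and 9 were at least 2-fold higher in GFP-negative cells, with a median difference of -3.28 (-4.01 to -1.45 over the alternative settings). Among the 3 that reached 10 CPM in both fractions, 1 was at least 2-fold higher in GFP-negative cells. SOX2, a factor of neural and other progenitors, had 0.872 CPM (0.565 to 1.29) against 33.6 CPM, and PAX6, which patterns forebrain and eye, 5.72 against 96.3 CPM. In the RA GFP-negative cells SOX2 had 14.3 CPM and PAX6 had 8.50 CPM, below the CTR GFP-negative values. NES, an intermediate filament that muscle and endothelium also make, was within 2-fold. Of the 14 genes of the eye field and retina, 7 were tested, and MAB21L2 alone of these reached 10 CPM in both fractions (15.1 against 43.7 CPM, with 58.6% of its exon bases shared with other genes). SIX3, which specifies the anterior brain and eye, had 8 reads against 89, or 0.279 against 19.0 CPM. RAX, an early eye factor, had 32 reads against 93, or 1.12 against 19.8 CPM.

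Melanin, the pigment of retina and skin, is made by a short pathway of enzymes in melanosomes. Of 15 pigment cell genes, 7 were tested and 5 were at least 8-fold higher in GFP-negative cells, with a median difference of -3.94 that ran from -4.09 to -1.77 over the alternative settings. Of the 3 that reached 10 CPM in both fractions, 1 was at least 2-fold higher in each direction. TYRP1, an enzyme of melanin synthesis, had 2.83 CPM (2.24 to 3.51) against 121 CPM (111 to 131), DCT, another enzyme of the pathway, 5.48 against 109 CPM, and TYR, its rate-limiting enzyme, 7 reads against 85. PMEL, the fibril protein of melanosomes, had 26.1 against 444 CPM. In the RA GFP-negative cells TYRP1 had 25.2 CPM, DCT 7.01 CPM and PMEL 48.2 CPM, each below its level in CTR GFP-negative cells. RPE65 and MLANA, defining genes of the retinal pigment epithelium and of melanocytes, had no reads in CTR GFP-negative cells and 63 and 9 reads in CTR GFP-positive cells. At 9 reads MLANA had 0.314 CPM, under the 0.639 CPM that could go unseen in the CTR GFP-negative library. MITF, which is not limited to pigment cells and has a heart isoform, was higher in GFP-positive cells, at 67.5 against 24.7 CPM.

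Neuronal and neural crest genes were less uniform. Of 24 neuronal genes, 7 were tested, of which 5 were at least 2-fold higher in GFP-negative cells, with a median of -2.14. GAP43, a growth cone protein, had 14 reads against 87, or 0.489 against 18.5 CPM. STMN2, a regulator of microtubules, had 36 reads against 79, or 1.26 against 16.8 CPM. SNAP25, of the vesicle fusion machinery, went the opposite way, at 12.5 against 4.69 CPM. Of 15 genes of neural crest and glia, 6 were tested, 4 were at least 2-fold higher in GFP-negative cells and ERBB3 in GFP-positive cells, with a median of -2.65. SOX10, the defining factor of the migrating crest, had 7 and 30 reads, and FOXD3 had 3 reads and none. GFAP, a glial member of the list, had 80 reads in GFP-positive and none in GFP-negative cells, at least 4.37-fold higher in the former. Restricting the genes to those above 30 CPM turned the medians of both lists positive, to 0.64 for neurons and 0.27 for neural crest and glia.

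Of 22 epithelial markers, 13 were tested, 11 were at least 2-fold higher in GFP-negative cells and none in GFP-positive cells, with a median difference of -1.65 (-3.05 to -1.20 over the alternative settings). Among the 5 that reached 10 CPM in both fractions, 3 were at least 2-fold higher in GFP-negative cells. CDH1, the epithelial cadherin, had 8.24 CPM (7.22 to 9.36) against 122 CPM (113 to 133), and IGFBP3, a binding protein of insulin-like growth factors that stroma also secretes, 40.6 against 960.0 CPM. EPCAM was level at 15.9 against 18.1 CPM. Cartilage genes split. The collagens COL9A3 and COL9A2 had 29.0 against 461 CPM and 11.2 against 144 CPM. ACAN, the large proteoglycan of cartilage, had 13 reads against 55, or 0.454 against 11.7 CPM. COL2A1, the main collagen of cartilage, was instead higher in GFP-positive cells at 1195 CPM (1182 to 1208) against 511 CPM (491 to 532). The list median was -2.71 (-3.14 to -1.32 over the alternative settings) with 5 of 7 tested genes at least 2-fold higher in GFP-negative cells.

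Lineages with few reads in either fraction included endoderm, skeletal muscle and undifferentiated cells. Of 19 endoderm genes in the counts, TTR, the thyroid hormone carrier made by liver, choroid plexus and retinal pigment epithelium, was tested and had 3.28 against 73.0 CPM, while AFP had 8 and 14 reads and FOXA2 none in either. The myogenic factors MYOD1 and MYF6 had no reads in the reporter cells, and 6 and 2 reads in the remainder, and TNNT1, the slow skeletal troponin T that embryonic heart also makes, had 8.17 against 124 CPM. Members of the same list that went the other way included TNNT3 (16.5 against 7.88 CPM) and TNNC2 (102 reads against none, at least 5.57-fold). NANOG had no reads in either CTR library and POU5F1 had 1 read in GFP-positive cells, although these genes have pseudogene copies that reduce unique alignment. Of 5 tested genes from 15 linked to pluripotency, DPPA4 and L1TD1 were at least 2-fold higher in GFP-negative cells and SALL4 in GFP-positive cells.

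Smooth muscle markers showed no common direction. Of 13 tested, 3 were at least 2-fold higher inside the gate and 5 outside it, with a median difference of -0.69. TAGLN, an actin-binding protein of smooth muscle and stroma, had 70.9 against 338 CPM, with 47.8% of its exon bases shared with other genes, and MYH11, the smooth muscle myosin heavy chain, 3.35 against 23.2 CPM. DES, the intermediate filament of all muscle, had 1127 against 328 CPM and CNN1, a calponin, 251 against 98.2 CPM. ACTA2, which embryonic cardiomyocytes also make, had 151 against 272 CPM, with 36.2% of its exon bases shared with other genes and near-identical copies elsewhere.

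Genes of the cell cycle held both promoters and inhibitors of division. Of 24, 18 were tested, 9 were at least 2-fold higher in GFP-negative cells and none in GFP-positive cells, with a median difference of -0.97. Among the 12 that reached 10 CPM in both fractions, 3 were at least 2-fold higher in GFP-negative cells. MKI67, a marker of cycling cells, had 3.59 CPM (2.93 to 4.36) against 21.9 CPM (17.9 to 26.6), TOP2A, the topoisomerase of dividing cells, 10.6 against 47.1 CPM, and RRM2, which supplies nucleotides for replication, 3.11 against 21.5 CPM. CDKN1C, an inhibitor of the cell cycle, was among the 9 too, at 132 against 600.3 CPM. The replication helicase genes MCM2, MCM3 and MCM5 were within 2-fold, and so was the mitotic kinase AURKA. Among 16 housekeeping genes the median difference was 0.01, 14 were within 2-fold, and PGK1 and SDHA, of glycolysis and respiration, were at least 2-fold higher in GFP-positive cells.

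**Figure D3:**
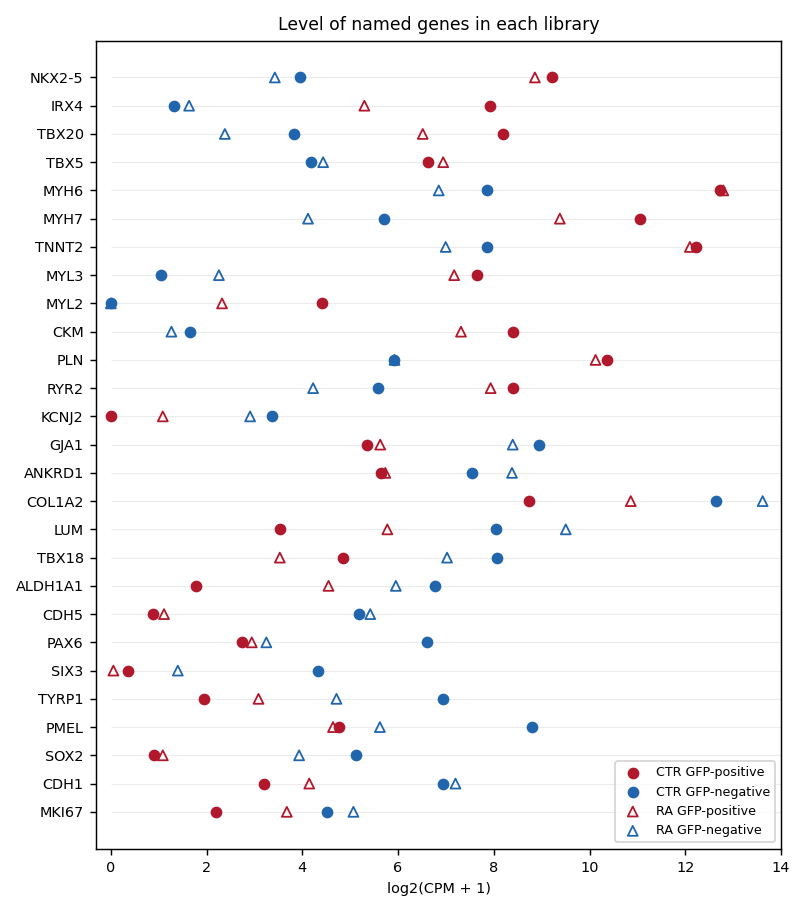
Level of named genes in the 4 libraries, as log2(CPM + 1), for the CTR culture (filled circles) and the RA culture (open triangles) with GFP-positive cells in red and GFP-negative cells in blue. NKX2-5 and the contractile genes have both GFP-positive libraries on the right, the collagen, epicardial and endothelial genes have both GFP-negative libraries on the right, and TYRP1, PMEL and PAX6 stand highest in the CTR GFP-negative library.

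Genes of each fraction were not absent from the other. Summed over the list, thick and thin filament genes had 29123 CPM inside and 2803 CPM outside the gate, so that 9.62% of the level remained outside the gate, and 16 of the 18 members had reads there. The median over tested members was 4.82%. NKX2-5 itself was at 14.5 CPM, MYH6 at 3.38% and TNNT2 at 4.82% of their GFP-positive levels. In the other direction, stromal genes summed to 7912 CPM inside and 52413 CPM outside the gate, or 15.1% of the level. The median over its tested members was 14.6%. The summed shares of other lists and the medians over their tested members were 13.3% and 7.05% for eye field and retina, 22.7% and 7.17% for endothelium, 24.1% and 26.4% for epithelium and surface ectoderm, and 25.4% and 8.33% for epicardium and mesothelium. They lay further apart for pigment cells (42.2% and 5.87%), neural crest and glia (61.6% and 10.5%), neurons (62.7% and 17.4%), neural progenitors (63.8% and 4.94%) and cartilage and bone (91.0% and 12.2%). In such lists a few abundant members that were higher in GFP-positive cells weighed on the sum, such as SERPINF1 and MITF among pigment genes (292 against 171 CPM for the former), NES among neural progenitors (266 against 166 CPM) and COL2A1 among cartilage genes. Members that reached 10 CPM in the remainder alone, such as 8 of 11 tested for neural progenitors, had to be lower in GFP-positive cells. The filter thus pulls the medians of such lists down, and they do not measure what was left in GFP-positive cells. Of the endothelial genes, VWF, LYVE1 and ESAM had no reads in GFP-positive cells, whereas 13 of the 17 had at least 4 reads there. The part of carry-over between the gates, of genes that both fractions express and of the difference in depth was not tested.

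**Figure D4:**
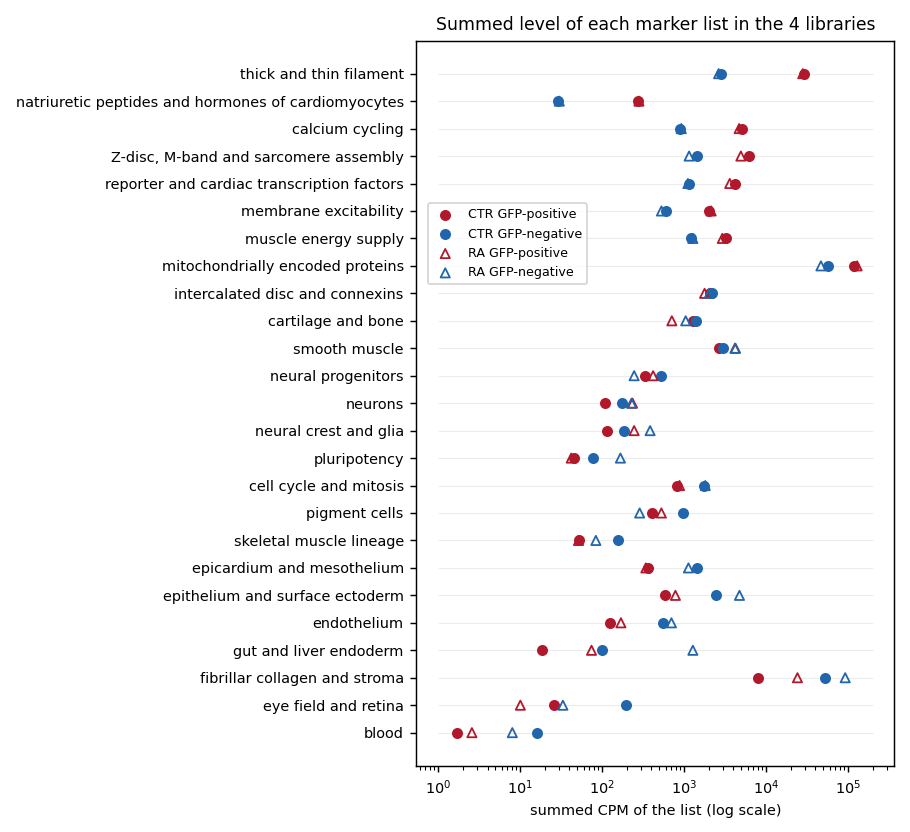
Summed CPM of each marker list in the 4 libraries on a log axis, with symbols as in the plot of named genes. Contractile, calcium and energy genes are higher in both GFP-positive libraries, stromal, epicardial and endothelial genes in both GFP-negative libraries, and the eye and pigment lists are highest in the CTR GFP-negative library.

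The RA culture supplied another pair of libraries, sorted the same way and sharing no sample with the CTR pair. Among the same 11806 genes, 1163 (9.85%) were at least 2-fold higher in RA GFP-positive and 1286 (10.9%) in RA GFP-negative cells. Of the 1406 genes higher in CTR GFP-positive cells, 837 (59.5%) were at least 2-fold apart the same way in the RA pair, 560 were within 2-fold and 9 were at least 2-fold the opposite way. Of the 1567 genes higher in CTR GFP-negative cells, 1036 (66.1%) were at least 2-fold apart the same way, 522 were within 2-fold and 9 were the opposite way. At 8-fold in the CTR pair these shares were 160 of 166 (96.4%) and 313 of 348 (89.9%).

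Summed over whole lists, some levels differed between the cultures. Eye field and retina genes summed to 194 CPM in CTR GFP-negative and 33.2 CPM in RA GFP-negative cells, and pigment genes to 969 and 287 CPM. Endoderm genes went the other way, with 98.8 CPM in CTR GFP-negative and 1279.6 CPM in RA GFP-negative cells. With 1 library per fraction and culture, a difference between the cultures and an effect of RA cannot be told apart.

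**Figure D5:**
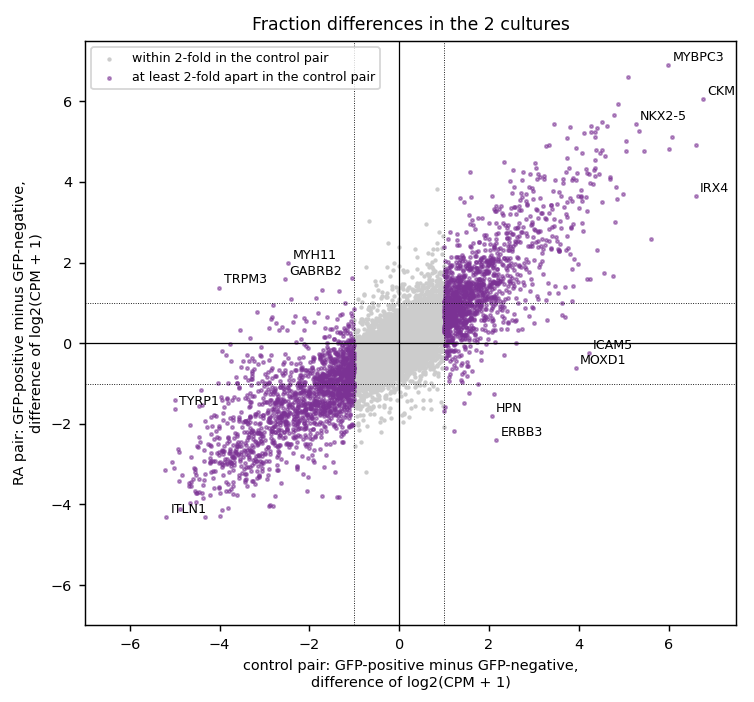
Difference between GFP-positive and GFP-negative cells in the CTR pair (horizontal) and the RA pair (vertical) for each of the 11806 genes, in log2(CPM + 1), with 2-fold as dotted lines. Most genes at least 2-fold apart in the CTR pair (purple) have the same sign in the RA pair, and 18 genes are at least 2-fold apart in opposite directions.

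The 10 genes with the widest gap of opposite sign between the pairs were TRPM3, ERBB3, MOXD1, ICAM5, MYH11, GABRB2, NELL2, HPN, CNTN2 and BMP4. MOXD1 and ICAM5 were higher in CTR GFP-positive cells, at 176 against 10.6 CPM and 81.0 against 3.41 CPM, and lay at 44.5 against 68.6 CPM and 23.1 against 27.7 CPM in the RA fractions. BMP4, a ligand of early mesoderm and epithelia, had 12.4 CPM in CTR GFP-positive and 93.3 CPM in CTR GFP-negative cells, and 198 and 102 CPM in the RA fractions. In these genes the fraction with the higher level changed between the cultures, and no test of that change was possible with 1 library each.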

How the data were processed

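RNA of 4 sorted fractions of NKX2.5:GFP hESC cultures was sequenced from strand-specific libraries. The authors aligned reads to hg19 with GSNAP, used SAMtools 0.1.18 and kept uniquely aligned reads (tool versions from the submitters' processing notes). For each Ensembl gene the authors took the number of reads from HTSeq 0.6.1p1, run without strand, and deposited these raw counts. Reads of near-identical copies can be lost, and a gene and its antisense partner cannot be told apart. Gene names were matched by Ensembl identifier for 55538 of 60234 genes (92.2%), and coordinates are from the GENCODE annotation lifted to GRCh37. NEFL and MYLPF were not analysed here, and some listed genes are not reported here.

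The counts were converted here to CPM by TMM factors of all 4 libraries (1.00 for CTR GFP-positive and 1.07 for CTR GFP-negative cells; edgeR 4.0.16, R 4.3.3), and log2(CPM + 1) was compared among genes with 10 CPM in either CTR library. No test was made, as each group has 1 library. Intervals were computed with scipy 1.17.1 in Python 3.11.15, and the procedure was tested on simulated data.

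Genes named were NKX2-5, members of each list with the largest differences or with no reads in a CTR library, the 15 largest differences in each direction, the 10 genes with the most reads per CTR library and the 10 with the widest opposite-sign gap to the RA pair. List members outside this rule, and the genes with a shown promoter, were chosen after their values were seen. The comparison, the lists and the motifs were chosen with earlier results of these data known. Alternatives were 5 other scalings, among them DESeq2 1.42.0 size factors, pseudocounts of 0.25 and 5 CPM, thinning to the smallest library, filters of 1 and 30 CPM, and no filter beyond 1 read.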

Additional observations from a re-analysis of the deposited data

Results flagged for a closer look

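Among the named genes, 6 were at least 2-fold apart in opposite directions in the CTR pair and the RA pair, on the log2(CPM + 1) scale and as GFP-positive minus GFP-negative. Across all 11806 genes 18 (0.152%) did so. The difference between the cultures was not tested for any of them, since each fraction of each culture has 1 library.

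ERBB3, a receptor of neural crest and epithelial cells that cardiac cushions also use, differed by 2.16 in the CTR pair and by -2.41 in the RA pair, at 46.3 against 9.58 CPM and 11.1 against 63.5 CPM. HPN, a membrane serine protease of epithelia, differed by 2.06 and -1.80, at 43.0 against 9.58 CPM and 20.8 against 74.9 CPM. Both were counted from 45 reads in the CTR GFP-negative library.

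The other 4 were higher in GFP-negative cells of the CTR culture and in GFP-positive cells of the RA culture. MYH11, the smooth muscle myosin, differed by -2.48 and 1.98, and MYLK, the kinase that activates smooth muscle myosin, by -1.84 and 1.11. In RA GFP-positive cells they had 115 and 271 CPM, and in CTR GFP-positive cells 3.35 and 18.4 CPM. TRPM3, a cation channel known from retinal pigment epithelium and sensory neurons, differed by -4.01 and 1.38, with 309 reads in CTR GFP-negative cells. GABRB2, a subunit of the GABA receptor, differed by -2.54 and 1.58.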

How the results depend on the processing

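Of 96 recomputed counts and checks, 84 stayed within 1.5 times their value or within the counting error of NKX2-5, and 12 moved. Genes at least 2-fold higher in CTR GFP-positive and CTR GFP-negative cells numbered 1406 and 1567, and 2646 and 3191 with a filter of 1 CPM or with no filter beyond 1 read, and 903 and 902 with a filter of 30 CPM. Genes at least 8-fold apart numbered 166 and 348, and 79 and 120 with a pseudocount of 5 CPM, which compresses low genes. With a filter of 30 CPM, 217 passed 8-fold in favour of GFP-negative cells. The count that passed the same way in the RA pair for GFP-negative cells was 1036, and it was 1596 with a filter of 1 CPM or with no filter beyond 1 read and 610 with one of 30 CPM. Filters change how many genes are counted. Recomputed list medians stayed close to their value in 223 cases, moved in 47 and turned sign in 4. The pseudocount of 5 CPM and the filters moved most of them. The median of pigment cells lay between -4.09 and -1.77, that of neural progenitors between -4.01 and -1.45, endothelium between -3.75 and -1.92 and cartilage and bone between -3.14 and -1.32, against 4.16 to 4.40 for the thick and thin filament and -2.88 to -2.47 for stroma. List medians of 1 or more in size, in either direction, kept their sign under all 11 alternatives except for neurons (0.64) and neural crest and glia (0.27) with a filter of 30 CPM, and for skeletal muscle with a filter of 1 CPM (0.46) and with none beyond 1 read (0.093), where other members enter the median or leave it. The pluripotency list had no member left with a filter of 30 CPM. The number of lists with a median of at least 1 or of -1 or less was 8 and 12 under the reported settings. All 144 named genes at least 2-fold apart kept their direction under each scaling, pseudocount and depth. Scaling by library size alone moved the median of all genes by -0.10, and other scalings by less. No paired analysis was possible because the groups compared share fewer than 2 replicate numbers, and leaving out a replicate was not possible with 1 library per group. A model of fraction with culture as a block over all 4 libraries was not fitted. Depth limits the CTR GFP-negative library, where a level under 0.639 CPM could not be told from 0. A single culture per treatment means that differences between sorts and between cultures are contained in every value.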
